A study of Mus musculus with 4 samples.

Results

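UCHL1, THY1, ELAVL3 and SYNGR1 are widely used markers of neurons, and the last of them codes for a protein of the synaptic vesicle. They were measured by 7 cDNA clones on arrays that compared stimulated with unstimulated sensory neurons, separately in axons and in cell bodies. A spot was taken as a member when the only gene symbol of its platform annotation was one of these 4, and every such spot was kept, with no filter on brightness. UCHL1 had 3 clones, ELAVL3 had 2, and THY1 and SYNGR1 had 1 each, out of 8496 spots that name 1 gene (6284 genes) and 9600 spots in all. The rule uses gene symbols and no measured value, but the 4 genes were chosen with earlier results of these data known.

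Dorsal root ganglion (DRG) neurons of NIH Swiss mouse embryos at day 13.5 were grown for 3 weeks in Campenot chambers, in which axons cross under a barrier into a compartment that holds no cell bodies. RNA of 4 conditions was hybridized, 1 nylon membrane to each condition: axons after 2 h of electrical stimulation, unstimulated axons, cell bodies after 2 h of electrical stimulation, and unstimulated cell bodies. Each sample pooled 3 coverslips, all came from cultures in which dividing non-neuronal cells had been suppressed, and serum was withdrawn the night before. With 1 membrane to a condition there were no replicates and nothing could be given a p-value, and how precise a value is depends on this small number of arrays. The cell body compartment also holds the axons next to the cells, and in pooled RNA fewer cells of a type and less RNA per cell cannot be told apart. The clones are named by human symbols while the RNA was from mouse, and how far a clone also binds RNA of a related gene was not tested.

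A DRG neuron has a single branching axon and no dendrites, and the axon carries mRNA far from the nucleus, where some of it is translated locally. UCHL1 is a ubiquitin hydrolase of the neuronal cytoplasm, long used under the name PGP9.5 to stain peripheral nerve fibres. THY1 is a lipid-anchored adhesion protein of the neuronal surface. ELAVL3, also called HuC, belongs to the ELAV proteins that bind AU-rich elements in mRNA, and SYNGR1 (synaptogyrin 1) is a membrane protein of synaptic vesicles that takes part in the regulation of transmitter release.

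Intensities were as deposited, in arbitrary units, and were not normalized between membranes. The median spot lay at 103 in stimulated axons, 89.3 in unstimulated axons, 118 in stimulated cell bodies and 160 in unstimulated cell bodies. To compare membranes, log10 intensity was turned into a z-score over all spots of a membrane, so that 0 is the array mean, and a z ratio is the difference of z-scores between 2 membranes in units of its own SD over the 9600 spots. Values at or beyond 1.4 in either direction were counted as past the threshold, the cut-off of the methods. In a comparison, a spot was taken as above the array mean when the mean of its 2 z-scores was above 0. The only error that these arrays give is the spread between clones of 1 gene. Over 3640 pairs of such clones the SD of a z ratio was 0.885 for stimulation in axons and 0.715 for stimulation in cell bodies, and where both clones lay above the array mean it was 0.496 (639 pairs) and 0.275 (817 pairs). It counts differences between clones and between places on the membrane, and none between cultures. Clones of 1 gene agreed little. Their stimulation z ratios correlated at 0.072 in axons and 0.122 in cell bodies over all pairs. Where both clones lay above the array mean the correlation was 0.174 and 0.224. Over all spots above the array mean, of any gene, the SD was 0.636 in axons and 0.309 in cell bodies, not far above that between clones.

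UCHL1 was read brightly by 1 of its 3 clones. The clone at spot 2764 read 6959 in stimulated axons, 7455 in unstimulated axons, 9658 in stimulated cell bodies and 9384 in unstimulated cell bodies, with z-scores of 2.37 (stimulated) and 2.41 (unstimulated) on the axon membranes and 2.12 (stimulated) and 2.15 (unstimulated) on the cell body membranes. It was bright on every membrane. The clone at spot 6031 read 156 in stimulated axons, 98.7 in unstimulated axons, 123 in stimulated cell bodies and 179 in unstimulated cell bodies, which is below the array mean on all of them. The clone at spot 6435 was dimmer still, at 59.5 in stimulated axons, 52.4 in unstimulated axons, 44.8 in stimulated cell bodies and 93.2 in unstimulated cell bodies. Spots with no gene symbol at the middle and last place of each run of 50 in spot order were taken as blank. That they are blank was inferred from their place and not read from a label. Both dim clones stayed above the 95th percentile of these 384 spots of their membrane. It was 42.5 in stimulated axons, 21.9 in unstimulated axons and 10 in the cell bodies of either state. Spot 6435 in stimulated axons came closest to it.

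The stimulation z ratios of the 3 UCHL1 clones were −0.16, 0.61 and −0.26 in axons and −0.14, −0.19 and −0.77 in cell bodies, in the order of spots 2764, 6031 and 6435. Clones of this 1 gene thus differed in sign in axons, and their mean was 0.06 in axons, with an SD of 0.475 over the 3 clones, and −0.37 in cell bodies, with an SD of 0.354. For the bright clone the size and sign depended on the processing: with clones above the array mean only it gave −0.86 in axons, and in cell bodies, where its z ratio was negative, the log2 difference with each membrane centred on its median was 0.48. Between compartments the bright clone stood somewhat higher in axons on the z-score scale, with a z ratio of 0.67 for stimulated axons against stimulated cell bodies and 0.70 for unstimulated axons against unstimulated cell bodies. The bright-pair SDs there were 0.738 and 0.555, so that only the unstimulated difference passed its SD, and neither reached the threshold. The stimulated value depended on the processing. Over clones above the array mean only, it was −0.21, of the opposite sign, while with a robust z-score this clone passed the threshold. The raw intensity of the same clone ran the other way, at 0.721 times the cell body value with stimulation and 0.794 times without, while the median spot above the array mean was at 0.775 and 0.627 times. In order of z-score its levels ran unstimulated axons, stimulated axons, unstimulated cell bodies and stimulated cell bodies, and within each compartment the 2 states did not differ beyond the bright-pair SD between clones.

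THY1, with its single clone at spot 7759, was bright and nearly level by z-score on all 4 membranes. It read 4531 in stimulated axons, 4181 in unstimulated axons, 7242 in stimulated cell bodies and 7054 in unstimulated cell bodies, far above the array mean on every membrane (z-scores 2.10 in stimulated axons, 2.07 in unstimulated axons, 1.97 in stimulated cell bodies and 1.99 in unstimulated cell bodies). The stimulation z ratio was 0.13 in axons and −0.09 in cell bodies, and the corresponding raw ratios of stimulated to unstimulated were 1.08 and 1.03. Axons stood at z ratios of 0.35 with stimulation and 0.20 without, against cell bodies in the same state, while the raw intensity in axons was 0.626 and 0.593 times that in cell bodies. No neighbours in the order stimulated axons, unstimulated axons, unstimulated cell bodies and stimulated cell bodies differed beyond the spread between clones. The sign of these small z ratios is not a result, since that for stimulation in axons turned in 5 of 13 settings of the processing. With a robust z-score, which uses the median and the median absolute deviation, stimulated axons against stimulated cell bodies reached 1.52 and passed the threshold.

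ELAVL3 had a clear clone and a dim one, and neither moved with stimulation beyond the spread between clones. The clone at spot 123 read 764 in stimulated axons, 615 in unstimulated axons, 1005 in stimulated cell bodies and 1121 in unstimulated cell bodies, and its z-scores of 0.98 in stimulated and 0.92 in unstimulated axons, and of 0.95 in both states of the cell bodies, placed it above the array mean throughout. The clone at spot 8746 read 85.2 in stimulated axons, 58.1 in unstimulated axons, 87.3 in stimulated cell bodies and 112 in unstimulated cell bodies, below the array mean on each. For spot 123 the stimulation z ratio was 0.24 in axons and −0.01 in cell bodies, and for spot 8746 it was 0.37 in axons and 0.16 in cell bodies. Their mean in axons, 0.30, was positive in 15 of 15 settings of the processing and never past the threshold. Between compartments spot 123 gave 0.09 with stimulation and −0.08 without, and spot 8746 gave −0.21 with stimulation and −0.37 without, so that both ELAVL3 clones held nearly the same place on the axon and the cell body membranes. By spot 123 the order of levels was stimulated axons, unstimulated cell bodies, stimulated cell bodies and unstimulated axons. None of its 4 z ratios passed the bright-pair SD of its comparison. That SD was 0.496 for stimulation in axons and 0.275 in cell bodies. Between compartments it was 0.738 with stimulation and 0.555 without.

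**Figure D1:**
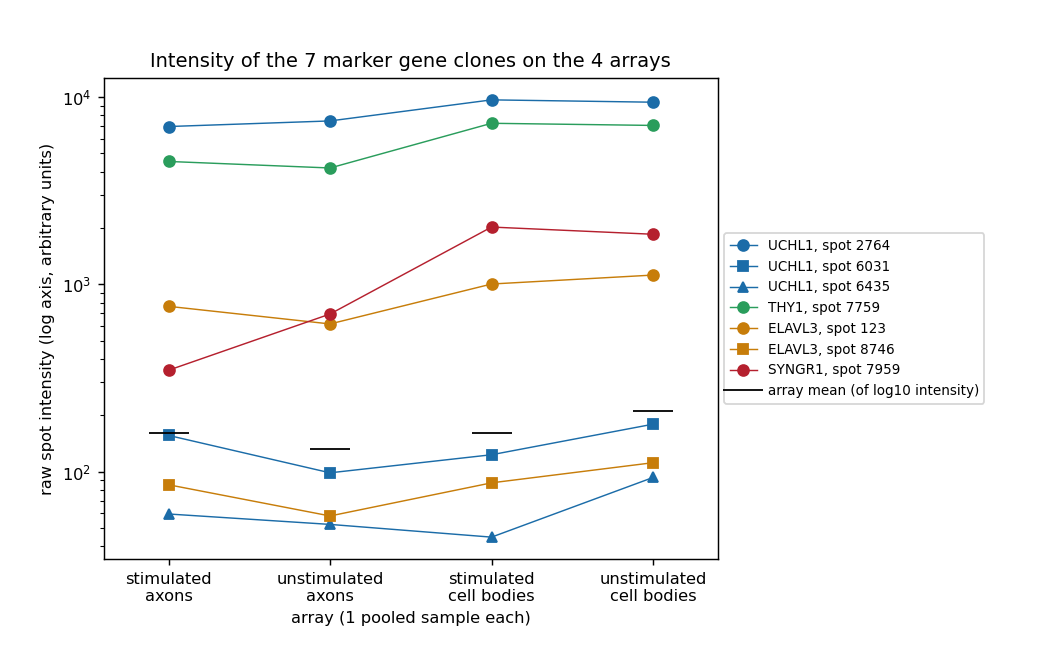
Raw intensity (log axis, arbitrary units) of the 7 clones of UCHL1, THY1, ELAVL3 and SYNGR1 on the 4 membranes, 1 pooled sample each, with the array mean of log10 intensity as a black bar. The bright clones of UCHL1, THY1 and ELAVL3 run nearly level within a compartment, while SYNGR1 lies at 348 in stimulated axons and 695 in unstimulated axons, both under its cell body values.

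SYNGR1 was the exception among the members. Its clone at spot 7959 read 348 in stimulated axons, 695 in unstimulated axons, 2023 in stimulated cell bodies and 1852 in unstimulated cell bodies. The stimulated axons were the lowest of the 4 conditions and the cell bodies the highest, and all values lay above the array mean, with z-scores of 0.49 (stimulated) and 0.99 (unstimulated) for axons and 1.31 (stimulated) and 1.23 (unstimulated) for cell bodies. Raw intensity in stimulated axons was 0.501 times that in unstimulated axons, although the median spot above the array mean stood at 1.16 times, and with both membranes centred on their median the log2 difference was −1.20. In cell bodies the stimulated value was 1.09 times the unstimulated one.

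For stimulation SYNGR1 had a z ratio of −1.92 in axons, against 0.29 in cell bodies. The axon value was past the threshold and more than 3 times the bright-pair SD of 0.496. The cell body value was about equal to its bright-pair SD of 0.275 and far from the threshold. Of 3644 spots above the array mean in axons, by the mean of both z-scores, 49 (1.34%) had a z ratio as low as that of SYNGR1 or lower. In cell bodies it was 2837 of 4037 (70.3%). SYNGR1 was chosen with earlier results of these data known, so such ranks describe it and test nothing. The axon value was negative in 13 of 13 settings of the processing, while the cell body value was positive in 12 of 13 and −0.44 with the robust z-score. With 1 clone of SYNGR1 on the array, no second clone could be set beside it. Clones of 1 gene above the array mean correlated at only 0.174 for the axon z ratio, so the value is that of this clone.

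By the z ratio over all spots, SYNGR1 was also the only member past the threshold between compartments. With the robust z-score THY1 and the bright UCHL1 clone passed there instead. Stimulated axons against stimulated cell bodies gave a z ratio of −2.15, past the threshold, and unstimulated axons against unstimulated cell bodies gave −0.65, which was not, although the robust z-score brought the stimulated value to −1.24 and normexp background correction the unstimulated one to −1.62. In raw intensity the stimulated axons held 0.172 times the value of stimulated cell bodies and the unstimulated axons 0.375 times that of unstimulated cell bodies. Of the spots above the mean, 56 of 3781 (1.48%) lay at or under SYNGR1 with stimulation and 454 of 3859 (11.8%) without. The stimulated axon membrane enters both of the values past the threshold, so that they are not separate evidence of a low reading there. In order of level SYNGR1 ran stimulated cell bodies, unstimulated cell bodies, unstimulated axons and stimulated axons. The bright-pair SDs between clones were 0.275, 0.555 and 0.496 for these neighbours, against z ratios of 0.29, −0.65 and −1.92, so that the first steps were close to 1 SD and the last was well beyond it.

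**Figure D2:**
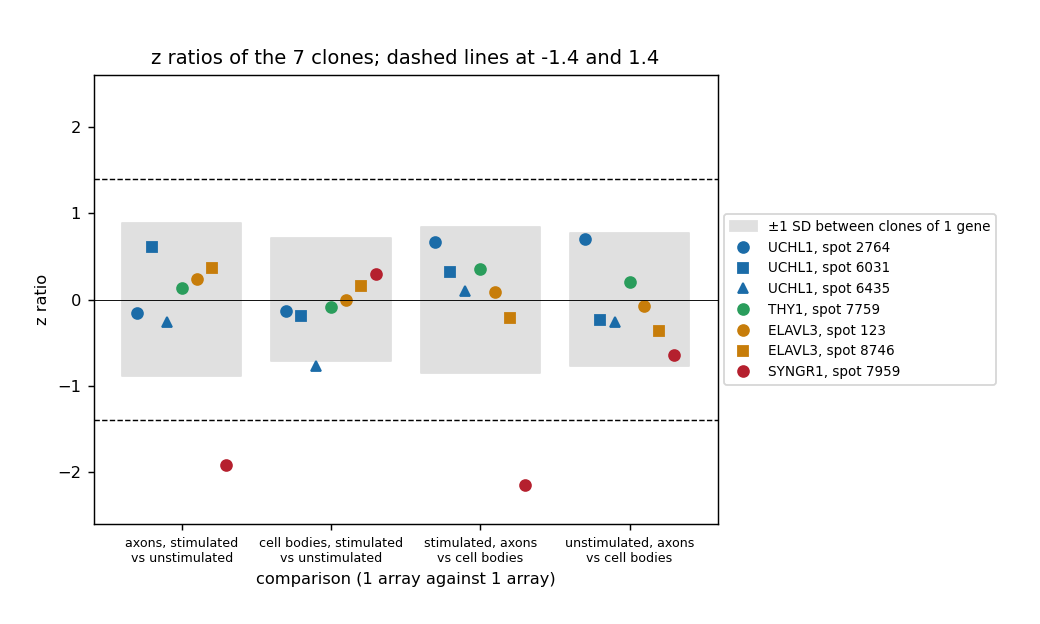
z ratio of each of the 7 clones in the 4 comparisons, each of 1 membrane against 1 membrane, with grey bands for ±1 SD between clones of the same gene over 3640 pairs and dashed lines at the threshold of 1.4 in size. SYNGR1 lies past the lower line at −1.92 for stimulation in axons and −2.15 for stimulated axons against stimulated cell bodies, and the other clones lie between the lines in every comparison.

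Counted over the members, 1 of 7 clones passed the threshold for stimulation in axons, that of SYNGR1, beside 10.2% of all 9600 spots and 4.09% of the spots above the array mean. None of 7 passed for stimulation in cell bodies, where 6.28% of all spots and 0.248% of the brighter ones did. None passed between unstimulated axons and unstimulated cell bodies (8.82% and 3.65%), and 1 of 7, again SYNGR1, passed between stimulated axons and stimulated cell bodies (10.5% and 7.48%). A count of 1 in 7 is near these backgrounds and is no result about the members as a group. What sets SYNGR1 apart from the others is its own value, and of the 4 clones above the array mean on every membrane it was the one past the threshold.

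The response in axons minus the response in cell bodies was −2.21 z ratio units for SYNGR1. It was 0.22 for THY1, 0.25 and 0.20 for the ELAVL3 clones, and −0.02, 0.80 and 0.52 for the UCHL1 clones. The SD between clones of this difference was 1.13 over all pairs and 0.550 over 596 pairs above the array mean, so that SYNGR1 lay beyond both and the other members within them, except that the dim UCHL1 clone at spot 6031 passed the smaller, which was set by brighter clones. Of 3451 spots above the array mean in both stimulation comparisons, 26 (0.753%) had a difference as low as SYNGR1 or lower. Among the same spots 85 were at −1.4 or lower for stimulation in axons, and 62 of those were above 0 in cell bodies. A value above 0 was common in cell bodies, where the median z ratio of the spots above the array mean was 0.154. Of those 4037 spots, 27.8% lay at or under ELAVL3 spot 123, which was at −0.01. The count of 62 is therefore no result about clones low in stimulated axons. With 1 difference in each compartment the contrast between compartments could not be tested. Between clones of 1 gene this contrast correlated at 0.038 over all pairs and 0.113 over pairs above the array mean.

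**Figure D3:**
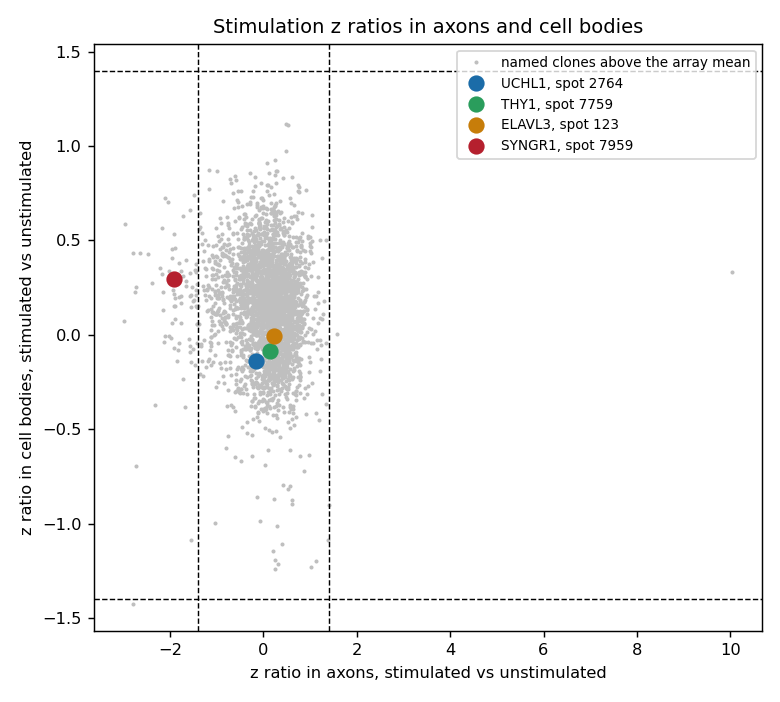
z ratio for stimulation in axons (horizontal) against that in cell bodies (vertical) for named clones above the array mean, grey points, with the bright clones of the 4 marker genes in colour and dashed lines at 1.4 in size. SYNGR1 lies left of the lower axon line at −1.92 and at 0.29 on the vertical axis, while UCHL1, THY1 and ELAVL3 lie near the middle of the points.

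The spots directly before and after the bright member clones in spot order were all dimmer than they were. Spots in adjoining rows were not looked at, and that spot order follows place on the membrane was assumed. Over the 4 membranes SYNGR1 read 3.53 to 24.3 times the spot before it (GMDS) and 3.91 to 50.5 times the spot after it (MALL), and for stimulation in axons the z ratio was 0.83 for GMDS and −0.01 for MALL. THY1 read at least 7.88 times its neighbours, the bright UCHL1 clone at least 37.7 times and ELAVL3 at spot 123 at least 7.22 times. The dim UCHL1 clone at spot 6435 is the one member with a much brighter spot directly before or after it in this order. PLPP2 next to it read 359 in stimulated axons, 327 in unstimulated axons, 1156 in stimulated cell bodies and 1179 in unstimulated cell bodies, and the part of that spot in the UCHL1 value was not tested.

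Relatives of the members were described in the same way. UCHL3, a ubiquitin hydrolase of the same family, was bright, at 18930 in stimulated axons, 20836 in unstimulated axons, 22155 in stimulated cell bodies and 22622 in unstimulated cell bodies, and its stimulation z ratios of −0.10 in axons and −0.41 in cell bodies were under the threshold, as were those of UCHL5 (−0.34 in cell bodies). UBB, which codes for polyubiquitin, gave 0.54 in axons and −0.40 in cell bodies over 3 clones. ELAVL1, the broadly expressed ELAV protein HuR, was dim on each membrane, from 24.3 in stimulated cell bodies to 51.7 in unstimulated cell bodies, and gave 0.51 in axons and −0.71 in cell bodies. THY1 was the only one measured of 22 listed neuronal adhesion proteins of the immunoglobulin superfamily.

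The synaptogyrin and synaptophysin family had 4 measured genes of 8 listed. SYNGR2, the synaptogyrin of non-neuronal tissues, read 137 in stimulated axons, 163 in unstimulated axons, 826 in stimulated cell bodies and 773 in unstimulated cell bodies. It was low in axons in both states, with z ratios against cell bodies of −2.48 with stimulation and −1.64 without, and its stimulation z ratio in axons, −0.86, did not pass the threshold. SYNGR3, a neuronal synaptogyrin, was dim and gave 0.37 in axons and −0.08 in cell bodies over 2 clones. SYPL1, a broadly expressed relative of synaptophysin, gave −1.14 in axons and −0.92 in cell bodies and was dim too. SYNGR1 was thus the only one of these 4 past the threshold for stimulation in axons. Whether the SYNGR1 and SYNGR2 clones bind each other's RNA was not tested.

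Among 15 measured synaptic vesicle and release proteins of 41 listed, SYNGR1 was alone past the threshold for stimulation in axons, where 7.83% of all genes passed by the mean of their clones. The other 14 had 11 z ratios above 0 and 3 below, with a median of 0.26 beside 0.02 over all 6284 genes, and none of them passed in axons. None of the 15 passed for stimulation in cell bodies, where 4.34% of all genes did, or between unstimulated axons and unstimulated cell bodies, where 6.22% did. VAMP2, the vesicle SNARE, read 589 in stimulated axons, 497 in unstimulated axons, 789 in stimulated cell bodies and 777 in unstimulated cell bodies, and its z ratio was 0.10 in axons and 0.31 in cell bodies. CPLX1, a regulator that binds the SNARE complex, gave 0.25 in axons and 0.30 in cell bodies, and PCLO, a scaffold of the active zone, gave 0.49 in axons and −0.13 in cell bodies. RPH3A, a partner of RAB3 on vesicles, gave 0.04 in axons and −0.69 in cell bodies. SYT11, a synaptotagmin, gave −0.19 in axons and 0.11 in cell bodies. Between stimulated axons and stimulated cell bodies SYNGR1 was again the only one of the 15 past the threshold, beside 7.43% of all genes, and the 14 others had a median of −0.09 beside −0.04 over all genes.

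The pan-neuronal genes, of which UCHL1, THY1 and ELAVL3 are members, had 23 measured of 38 listed. For stimulation in axons 11 were above 0 and 12 below, with a median of −0.04, and 2 passed the threshold, beside 7.83% of all genes: INA, a neurofilament protein, was higher and SCG5, a chaperone of neuropeptide processing, was lower. INA read 69.7 in stimulated axons, against 19.3 in unstimulated axons, and SCG5 read 20.5 in stimulated axons, against 57.5 in unstimulated axons. The lower reading of each was not above the 95th percentile of the blank spots, so that no size is given for either. The 20 genes other than UCHL1, THY1 and ELAVL3 had a median of −0.10 for stimulation in axons and of 0.06 for stimulation in cell bodies. Among those above the array mean, PCSK1N, an inhibitor of prohormone convertase, gave 0.73 in axons and 0.20 in cell bodies, and CHGA, a granin of dense-core vesicles, gave 0.48 in axons and 0.12 in cell bodies. NEFM, a neurofilament subunit, gave −0.29 in axons and 0.69 in cell bodies, SNCB, a synuclein, gave 0.26 in axons and 0.29 in cell bodies, and CRMP1, a mediator of axon guidance, gave −0.09 in axons and 0.18 in cell bodies as the mean of 3 clones. None of these 5 passed the threshold.

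**Figure D4:**
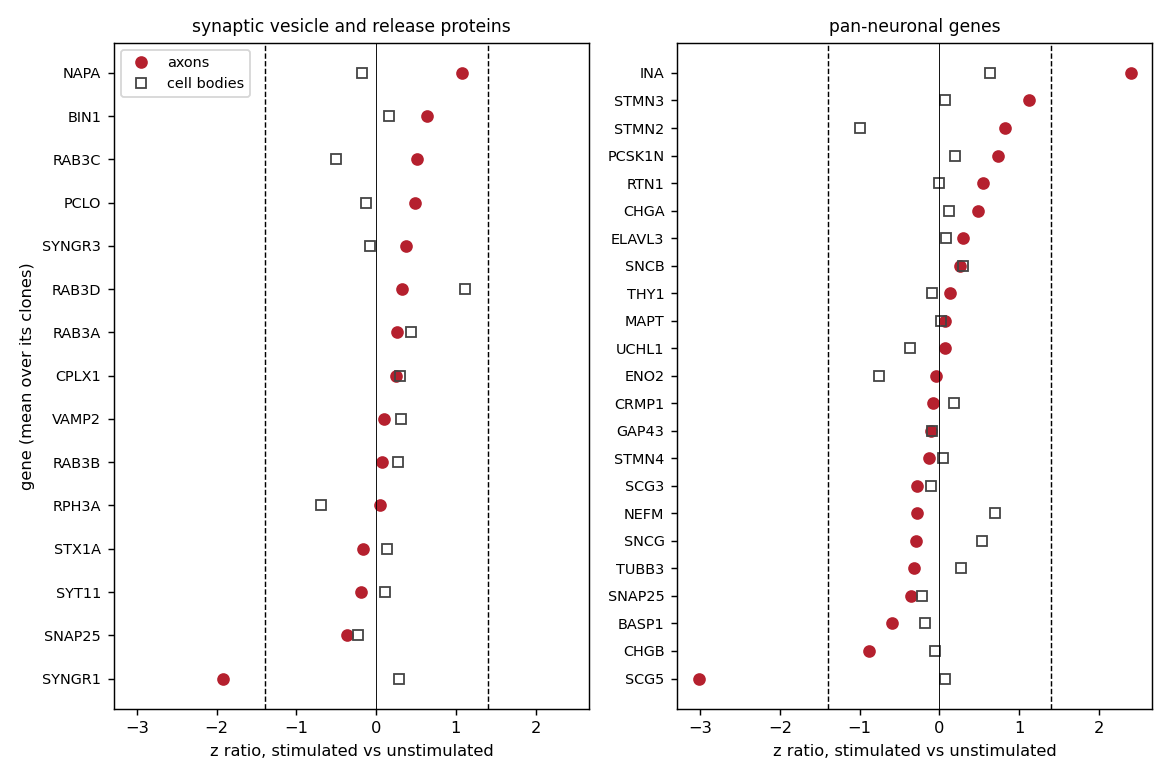
z ratio for stimulation of each measured gene (mean over its clones) of the synaptic vesicle list, left, and the pan-neuronal list, right, in axons (filled circles) and cell bodies (open squares), with dashed lines at 1.4 in size. SYNGR1 is the only vesicle gene past a line in axons, and UCHL1, THY1 and ELAVL3 lie near 0 among 23 pan-neuronal genes, of which INA and SCG5 pass with a reading not above blank spots on 1 axon membrane.

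The label of the samples was set against marker genes. Of the pan-neuronal genes, 9 of 23 had a mean z-score above 0 in stimulated axons, 10 in unstimulated axons, 11 in stimulated cell bodies and 10 in unstimulated cell bodies. Over all 6284 genes the share above 0 was 40.1% in stimulated axons, 42.0% in unstimulated axons, 45.2% in stimulated cell bodies and 44.2% in unstimulated cell bodies, so that the neuronal counts are near the background. GAP43, a growth cone protein, SNAP25, a SNARE of the plasma membrane, and the tubulin TUBB3, singled out after their values were seen, had mean z-scores below 0 on each membrane, although the brighter of the 2 TUBB3 clones lay above the array mean on both cell body membranes. The 9 genes above 0 in stimulated axons were above 0 on every membrane. They were UCHL1, THY1, ELAVL3, STMN4, NEFM, CRMP1, SNCB, PCSK1N and CHGA. Of 31 sensory neuron genes 5 were measured (NTRK3, RET, SNCG, RUNX3 and FXYD2), and the sensory channels and peptides of the list have no named spot. RUNX3, a transcription factor of proprioceptive neurons, read 1094 in stimulated axons, 857 in unstimulated axons, 1185 in stimulated cell bodies and 1148 in unstimulated cell bodies, and RET, a receptor for GDNF family ligands, reached 1128 in stimulated axons, 894 in unstimulated axons, 1698 in stimulated cell bodies and 1598 in unstimulated cell bodies by its brighter clone. For stimulation in cell bodies NTRK3, the receptor for neurotrophin-3, gave −1.72 but read 10.9 in stimulated cell bodies, close to the fill-in value of 10, and 39.6 in unstimulated cell bodies. Which sensory types were present cannot be read from 5 genes.

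Markers of other cells gave signal on the axon membranes as well. The summed intensity of 9 measured Schwann and satellite glia markers was 10659 in stimulated axons, 8831 in unstimulated axons, 12507 in stimulated cell bodies and 12358 in unstimulated cell bodies. For 8 fibroblast markers it was 32656 in stimulated axons, 28168 in unstimulated axons, 30411 in stimulated cell bodies and 30517 in unstimulated cell bodies, and for 8 macrophage markers it was 18938 in stimulated axons, 15810 in unstimulated axons, 18569 in stimulated cell bodies and 20004 in unstimulated cell bodies. These are raw sums, and the stimulated axon membrane was the brighter of the axon pair as a whole. A few spots made up most of the fibroblast and macrophage sums. In stimulated axons S100A4 read 20789 and FN1 10815 of the former, and C1QB 16465 of the latter. In unstimulated axons 3 of 9 fibroblast clones were not above the 95th percentile of the blank spots. By median z-score the glia markers stood at −0.21 in stimulated and −0.24 in unstimulated axons, the fibroblast markers at −0.102 in stimulated and −0.0027 in unstimulated axons, and the macrophage markers at 0.33 in stimulated and 0.36 in unstimulated axons. The 3 endothelial markers measured summed to 967 in stimulated axons, 1025 in unstimulated axons, 1788 in stimulated cell bodies and 1604 in unstimulated cell bodies, and LCK, the only T cell marker measured of 12, read 169 in stimulated axons, 80.3 in unstimulated axons, 122 in stimulated cell bodies and 141 in unstimulated cell bodies. For stimulation in axons 5 of these 29 measured marker genes (17.2%) passed the threshold, beside 7.83% of all genes. GFAP of glia was lower, and VIM and PDGFRA of fibroblasts and CLDN5 and ENG of endothelium were higher, but each of the 5 had a reading not above the 95th percentile of the blank spots on 1 axon membrane, so that no size is given. Between stimulated axons and stimulated cell bodies 6 of the 29 passed (20.7%), beside 7.43% of all genes. S100A4 (1.71) and C1QB (1.53) were higher in axons and SPARC (−1.81) lower, with readings above the blank spots. GFAP, DCN and PDGFRA passed with a reading not above them. CD14 and ENG passed for stimulation in cell bodies (6.90%, beside 4.34% of all genes), and CD14 between unstimulated compartments (3.45%, beside 6.22%). CD14 read 10 in unstimulated cell bodies. The part of other cells in the values of the 4 marker genes was not tested.

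The genes whose 4 z-scores lay closest to those of a member, by Euclidean distance over 6280 other genes, were found for each. SYNGR1 was closest to EIF4G1, a scaffold of translation initiation (distance 0.13), TOMM7, of the mitochondrial import pore (0.15), and BANF1, a chromatin-binding protein (0.20), with a median distance of 2.49 over all genes. Their stimulation z ratios were −2.01, −1.71 and −1.56 in axons and −0.01, −0.23 and 0.33 in cell bodies. Each was past the threshold in axons as SYNGR1 was. They were picked for likeness on the same 4 z-scores, so the shared call is no separate result. In all, 57 genes lay within 0.5 of SYNGR1. THY1 was closest to CENPQ (0.04), LBHD1 (0.08) and TST (0.08), against a median of 4.39. UCHL1, as the mean of its clones, was closest to SYK (0.05), TRAPPC9 (0.06) and MCM5 (0.09), and ELAVL3 to FAXDC2 (0.03), FASTKD3 (0.04) and KDELR1 (0.05). For these 2 genes the mean of a bright and a dim clone describes neither clone, and the likeness is that of the mean only.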

How the data were processed

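The authors amplified and radiolabelled the RNA of each compartment, hybridized it to nylon membranes of cDNA clones and read these with a phosphor imager. The authors deposited raw spot intensity for 9600 spots on 4 membranes, in 2 tables with 38400 identical values. Background handling by the imager software is not stated in these sources. Genes were taken from the platform annotation, in which 8496 spots name 1 gene, 21 several and 1083 none. z-scores of log10 intensity and z ratios were computed over all spots, with a threshold of 1.4, for 4 comparisons of 1 membrane against 1 membrane. Clones of a gene were averaged for its z ratio. Genes named are the 4 markers, the 3 genes nearest to each, their families, and of each list the genes past the threshold and, in a comparison, at most 4 others above the array mean, with exceptions named as such. The members and lists were chosen with earlier results of these data known. Python 3.11.15 (numpy 2.4.6, pandas 2.3.3) did the computing, limma 3.58.1 under R 4.3.3 ran normexp, quantile and loess, and the code was tested on simulated data. Other experiments of the study were not analysed here.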

Additional observations from a re-analysis of the deposited data

Results flagged for a closer look

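SYNGR1 was flagged because its stimulation z ratio differed between the 2 compartments. The z ratio of its clone was −1.92 in axons and 0.29 in cell bodies, a difference of −2.21. The cell body value was about equal to its bright-pair SD of 0.275, and the median spot above the array mean stood at 0.154 there. No movement of SYNGR1 in cell bodies is therefore claimed. With the robust z-score the cell body value was −0.44 and the signs were no longer opposite. The difference was not tested, since each compartment has 1 stimulated and 1 unstimulated membrane. No outlier could be sought within a group of 1 membrane.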

How the results depend on the processing

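SYNGR1 was lower in stimulated than in unstimulated axons under 13 of 13 settings, past the threshold of the setting in 12, with a z ratio from −3.57 to −0.50. Left undivided by its SD, the z-score difference of SYNGR1 falls under the threshold by construction, so that 0 member clones passed in axons and 0 between stimulated axons and stimulated cell bodies, and a threshold of 2 also left 0 in axons. Normexp background correction brought the count between unstimulated axons and unstimulated cell bodies to 1, SYNGR1 at −1.62. A robust z-score gave 2 between stimulated axons and stimulated cell bodies, THY1 at 1.52 and the bright UCHL1 clone. SYNGR1, at −1.24, was not among them, and the cause was not tested. The axon response minus the cell body response moved for THY1 to 1.98 with the robust z-score, and for SYNGR1 to −1.02 with the robust z-score, −4.21 with normexp and −3.75 over clones above the array mean, never changing sign for SYNGR1 in 13 settings. Of 212 mean z ratios of the members under alternatives, 197 stayed on their side of the threshold and moved by less than the spread between clones, 10 moved by more, 2 came to pass the threshold and 3 no longer did. The 197 include those of the identical table, which could not move. The bright UCHL1 clone gave −0.86 in axons over clones above the array mean. No paired analysis was possible because each condition has 1 membrane. Membrane number and signal over blank spots limit what the dim clones can show.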
